A study of Mus musculus with 7 samples.

Results

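Dbp, Tef, Hlf, Nfil3, Bhlhe40 and Bhlhe41 are transcription factors through which the circadian clock drives rhythmic genes. They were measured by RNA-seq in whole right lung lobes of bleomycin-challenged mice with or without hyperbaric oxygen (HBO), oxygen breathed in a pressure chamber. These 6 genes were taken from the 55401 genes of the count table, and all 6 were among the 17465 genes that passed the filter on low counts. The genes were chosen by name as clock output factors at a time when their difference between the groups in these mice was already known. Their fold changes are therefore a description and no P is given for any of the 6. All mice were male C57BL/6, aged 6 to 8 weeks, and all received bleomycin into the airway, so no uninjured lung was part of the comparison. The BLM group (n = 4) received no pressurized oxygen. The BLM+HBO group (n = 3) received 2.5 ATA for 90 min per day on 14 consecutive days from day 7. Lungs were collected on day 21 in both groups. The sample records place the BLM mice in the chamber without pressurization, whereas the study's methods call them untreated. The study left out mice that lost little weight after bleomycin. The hour of the day at which lungs were taken is not given in the sources used here, and its part in any difference below was not tested.

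The clock is a feedback loop. CLOCK or NPAS2 pairs with BMAL1 (gene Arntl) and binds E-boxes, DNA elements with the core CACGTG, which switches on the PER, CRY and REV-ERB (Nr1d1, Nr1d2) repressors and the output factor Dbp. DBP, TEF and HLF form the PAR bZIP family, which activates genes that carry a D-box element, among them enzymes of drug and heme metabolism. NFIL3 (also called E4BP4) binds the same element and represses it, and its gene is itself held down by REV-ERB, so Nfil3 and Dbp normally peak at opposite times of day. Bhlhe40 and Bhlhe41 encode DEC1 and DEC2, repressors that occupy E-boxes and also respond to hypoxia and immune signals. In the lung, Nfil3 is known for its role in NK cells, and Bhlhe40 and Bhlhe41 for their role in alveolar macrophages.

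The libraries held between 18157161 and 26365969 counts. No pair of libraries within a group agreed within sampling noise (lowest chi-square per gene 22.1). One library stood apart from its group, as BLM+HBO 2 differed less from BLM 4 (chi-square per gene 13) and BLM 3 (19) than from BLM+HBO 1 (64.3) and BLM+HBO 3 (57.5). On the first principal component, which held 37.3% of the variance, it lay at -0.996, against 54.8 and 37.8 for the other BLM+HBO mice and -47.6 to -6.08 for BLM. Without BLM+HBO 2 the log2 fold change was 2.13 for Dbp, 0.92 for Tef, 1.19 for Hlf, -0.98 for Nfil3, -0.58 for Bhlhe40 and 0.09 for Bhlhe41, beside the values with all mice given below. All 7 lung marker genes were detected in every mouse, with a summed level of 14848 to 27766 CPM, the count scaled to the same library size for every mouse, in BLM and 21109 to 45500 CPM in BLM+HBO. Nothing in the sources pairs mice across the groups.

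The sequences before the start sites were searched for the E-box, the D-box, a hypoxia response core and a glucocorticoid receptor core. RefSeq gave 6 start sites (build GRCm38.p6) for 5 of the 6 genes, and Bhlhe40 is named only. In the 250 bases before each start, the E-box CACGTG was present at 3 of the 6 start sites, both of Tef and that of Bhlhe41, and at 6.02% of all 32851 start sites. The D-box was searched as TTATGTAA, TTACGTAA, TTATATAA, TTACATAA and TTACACAA on both strands. It was present at 0 of the 6 start sites and at 2.07% of all. The hypoxia response core ACGTG, which every CACGTG contains, was present at 4 of the 6 start sites and at 16.6% of all. Its only match apart from an E-box was before Dbp. The glucocorticoid receptor core TGTTCT was present at 1 of the 6, the downstream start of Tef, and at 16.1% of all. A match in these letters is a description and not a binding site. The windows that hold a match are printed below with the motif in capitals, each on the strand of its gene.
Dbp, chr7:45705008-45705037, plus strand, ACGTG 227 bases before the start: caagggctcgagACGTGattggttcttgcc
Tef, upstream start, chr15:81802534-81802563, plus strand, CACGTG 127 bases before the start: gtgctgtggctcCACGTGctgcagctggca
Tef, downstream start, chr15:81811164-81811413, plus strand, TGTTCT on the other strand 209 bases and CACGTG 138 bases before the start: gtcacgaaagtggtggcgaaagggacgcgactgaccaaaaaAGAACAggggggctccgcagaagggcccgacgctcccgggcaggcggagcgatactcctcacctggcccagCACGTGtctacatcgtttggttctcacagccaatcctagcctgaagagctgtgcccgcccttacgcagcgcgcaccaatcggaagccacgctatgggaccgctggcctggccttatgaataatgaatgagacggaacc
Bhlhe41, chr6:145865556-145865585, minus strand, CACGTG 153 bases before the start: tggtacgttccgCACGTGagctgggtgctg
All 250 bases before the upstream Tef start lie in annotated exons of Tef and of the antisense gene Gm17597. The 250 bases before the downstream Tef start, and those before Hlf, lie in none. Of the 250 bases, 159 before the Dbp start, 138 before that of Bhlhe41 and 34 before that of Nfil3 lie in exons of the same gene.

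The PAR bZIP activators were higher in BLM+HBO, Dbp by the largest fold of the 6 genes. Dbp (ENSMUSG00000059824.12, chr7:45705088-45710203, plus strand) stood at 25.7, 24.3, 15.5 and 5.58 CPM in BLM 1 to 4, and at 117, 50.1 and 39.2 CPM in BLM+HBO 1 to 3. Every BLM+HBO mouse lay above every BLM mouse. The mean was 17.8 ± 9.28 CPM in BLM (SD, n = 4) against 68.6 ± 41.9 CPM in BLM+HBO (SD, n = 3), and edgeR estimated the difference at 1.95 on the log2 scale (standard error 0.49). In whole lung, fewer cells of a type and less RNA per cell cannot be told apart. Dbp also spread widely inside each group, 4.60-fold between the highest and lowest BLM mouse and 2.97-fold among BLM+HBO mice, with BLM 4 lowest and BLM+HBO 1 highest. The log2 fold change was 1.33 without BLM+HBO 1.

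Tef (ENSMUSG00000022389.15, chr15:81802421-81826863, plus strand) had the largest counts of the PAR family and the narrowest spread. It stood at 163, 165, 144 and 107 CPM in BLM 1 to 4, and at 341, 227 and 205 CPM in BLM+HBO 1 to 3. The groups did not overlap, and BLM 4 and BLM+HBO 1 were again the extremes. The mean was 144 ± 26.9 CPM in BLM against 258 ± 72.9 CPM in BLM+HBO, which edgeR estimated as 0.83 on the log2 scale (standard error 0.20), and 0.58 without BLM+HBO 1.

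Hlf (ENSMUSG00000003949.16, chr11:90336536-90390895, minus strand) differed from its family in that the groups overlapped. It stood at 15.5, 11.4, 8.07 and 8.06 CPM in BLM 1 to 4, and at 40.3, 20.8 and 9.11 CPM in BLM+HBO 1 to 3. BLM+HBO 3 lay below BLM 1 and BLM 2, and the higher mean rested on the other BLM+HBO mice. The log2 fold change was 1.12 (standard error 0.43), and 0.47 without BLM+HBO 1.

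Nfil3 (ENSMUSG00000056749.7, chr13:52967209-52981073, minus strand), the repressor of the D-box, went the other way. It stood at 21.2, 17.5, 24.8 and 34.6 CPM in BLM 1 to 4, and at 9.42, 15.36 and 15.37 CPM in BLM+HBO 1 to 3. Every BLM+HBO mouse lay below every BLM mouse, with the gap between BLM+HBO 3 and BLM 2 the narrow point. The mean was 24.5 ± 7.38 CPM in BLM against 13.4 ± 3.43 CPM in BLM+HBO, which edgeR estimated as -0.87 on the log2 scale (standard error 0.26).

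**Figure D1:**
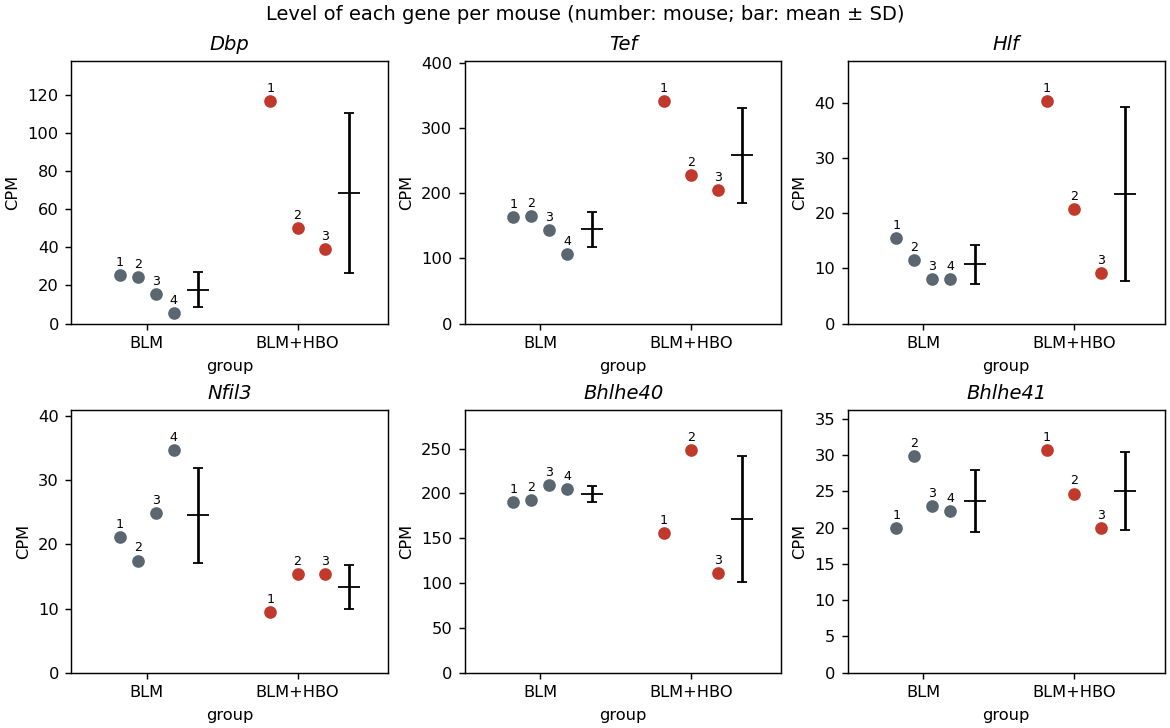
Level of the 6 genes in CPM (vertical axes, from 0) in each mouse, with BLM in grey, BLM+HBO in red, the mouse number above each point, and the mean ± SD beside each group. Dbp and Tef are higher and Nfil3 lower in every BLM+HBO mouse than in every BLM mouse, while Hlf, Bhlhe40 and Bhlhe41 overlap.

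The DEC genes did not share this pattern. Bhlhe40 (ENSMUSG00000030103.11, chr6:108660629-108666925, plus strand) stood at 191, 193, 209 and 204 CPM in BLM 1 to 4, and at 156, 248 and 111 CPM in BLM+HBO 1 to 3. The BLM mice lay within 1.09-fold of one another, whereas BLM+HBO 2 was the highest of all 7 mice and BLM+HBO 3 the lowest. The log2 fold change was -0.22 (standard error 0.23), and its sign turned without BLM+HBO 3 (0.017). Bhlhe41 (ENSMUSG00000030256.11, chr6:145858243-145865558, minus strand) stood at 19.9, 29.8, 22.9 and 22.2 CPM in BLM 1 to 4, and at 30.7, 24.7 and 19.9 CPM in BLM+HBO 1 to 3. Its log2 fold change was 0.080 (standard error 0.18), less than the spread between mice, and it was -0.089 without BLM+HBO 1.

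Groups without any overlap in CPM were seen for 3 of the 6 genes (Dbp, Tef and Nfil3) and for 8.77% of all tested genes. Nothing is read from this count, since the genes were chosen with this contrast known. With P adjusted over the whole table, edgeR left 0 genes (0%) under 0.05, limma-trend left 0 and DESeq2 left 128, while 1861 genes had an unadjusted edgeR P under 0.05.

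Marker genes of other cell types in lung pieces were summed in each mouse. All 6 NK cell markers had a higher mean in BLM+HBO, where their sum was 81.1, 20.8 and 21.1 CPM in BLM+HBO 1 to 3, against 6.06 to 20.4 CPM in BLM. Within BLM the mouse with the highest NK sum, BLM 4, had the lowest Dbp and the highest Nfil3, whereas within BLM+HBO the mouse with the highest NK sum, BLM+HBO 1, had the highest Dbp and the lowest Nfil3. All 9 heart muscle markers had a higher mean in BLM+HBO, and their sum was 704, 550 and 164 CPM in BLM+HBO 1 to 3 against 68.3 to 189 CPM in BLM. The BLM+HBO mice ranked in the same order by Hlf, and also by Dbp, Tef and Bhlhe41. BLM 4, with the highest heart muscle sum in BLM, was level with BLM 3 at the low end of Hlf (8.06 and 8.07 CPM).

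The alveolar macrophage sum was 717 to 2124 CPM in BLM and 666 to 851 CPM in BLM+HBO, with a higher mean in BLM+HBO for 5 of 8 markers. All 8 T cell markers had a higher mean in BLM+HBO (sum 45.3 to 79.8 CPM in BLM and 50.8 to 119 CPM in BLM+HBO), and 3 of 6 neutrophil markers did (163 to 225 CPM and 101 to 486 CPM). The 6 fibroblast markers all had a lower mean in BLM+HBO, with sums of 5888 to 9714 CPM in BLM and 1887 to 6331 CPM in BLM+HBO. The adipocyte sum was 14.9 to 19.6 CPM in BLM and 12.5 to 14.6 CPM in BLM+HBO, although 3 of 5 markers had a higher mean in BLM+HBO, and Plin1 and Lep had no count in some mice. No other marker was at 0 in any mouse. The part of these cell types in the levels of the 6 genes was not tested.

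Counting without strand leaves out reads shared by overlapping genes. Exons of Dbp overlap those of Sphk2, a sphingosine kinase gene on the other strand, which had 42.1 CPM in BLM and 41.2 CPM in BLM+HBO (log2 fold change -0.03, standard error 0.16). The genes that overlap exons of Tef (Gm17597), Bhlhe40 (0610040F04Rik) and Bhlhe41 (Gm43909) held 34, 21 and 54 counts in all 7 mice together.

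Dbp, Tef and Nfil3 followed one another mouse by mouse. Ranked by Tef from high to low, the mice came as BLM+HBO 1, BLM+HBO 2, BLM+HBO 3, BLM 2, BLM 1, BLM 3 and BLM 4. Ranked by Nfil3 from low to high they came in the same order, although BLM+HBO 2 and BLM+HBO 3 differed little in Nfil3. Dbp gave this order too except that BLM 1 lay just above BLM 2. Inside each group Tef and Nfil3 gave the same order, and Dbp did so apart from BLM 1 and BLM 2. Since the groups stand apart in Dbp, Tef and Nfil3, the order between the groups was set beforehand. No correlation over all mice is therefore given for these pairs.

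**Figure D2:**
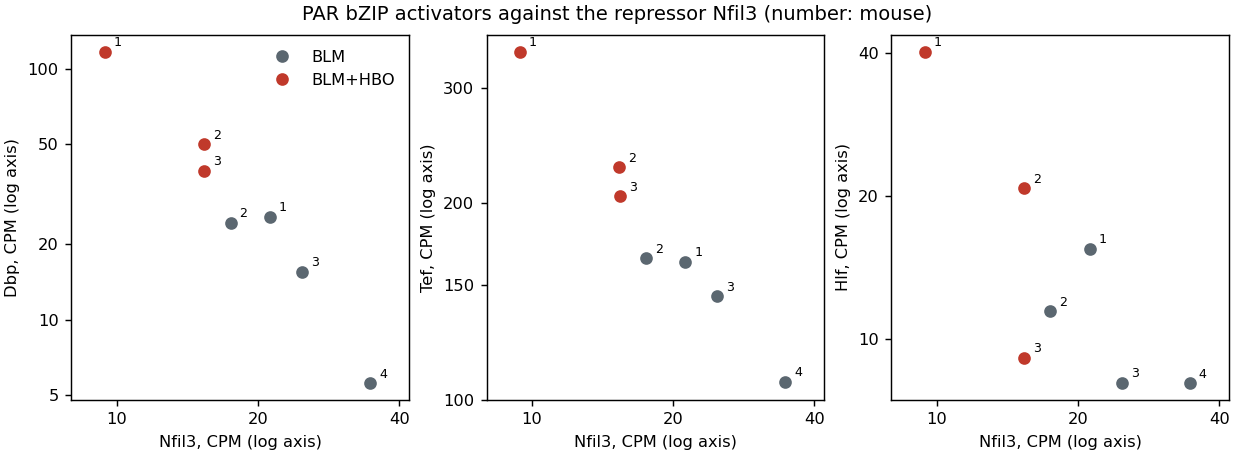
Dbp, Tef and Hlf (vertical axes) against Nfil3 (horizontal axes), in CPM on log axes, with 1 point per mouse, BLM in grey and BLM+HBO in red and the mouse number beside each point. For Dbp and Tef the mice line up from BLM+HBO 1 at low Nfil3 to BLM 4 at high Nfil3, while BLM+HBO 3 lies off the line for Hlf.

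The ratio of activator to repressor within a library needs no scaling between libraries. Per kilobase of exon, the ratio of Dbp to Nfil3 was 0.819, 0.941, 0.424 and 0.109 in BLM 1 to 4, and 8.38, 2.21 and 1.73 in BLM+HBO 1 to 3. On this scale Nfil3 exceeded Dbp in each BLM mouse and Dbp exceeded Nfil3 in each BLM+HBO mouse. Before division by exon length, Dbp was the higher in BLM 1 (25.7 against 21.2 CPM) and BLM 2 (24.3 against 17.5 CPM). The mean log2 ratio per kilobase was -1.20 ± 1.42 in BLM against 1.67 ± 1.23 in BLM+HBO (SD), a difference of 2.87. With each mouse left out in turn, a check chosen after seeing the data, the difference ranged from 2.17 to 3.31. The ratio of Tef to Nfil3 was 1.98, 2.43, 1.49 and 0.792 in BLM 1 to 4, and 9.32, 3.81 and 3.43 in BLM+HBO 1 to 3, again without overlap. Since Dbp and Tef were higher and Nfil3 lower in every BLM+HBO mouse, neither ratio could overlap, and nothing further is read from it. The ratio of Hlf to Nfil3 overlapped between the groups, at 0.0705 to 0.221 in BLM and 0.18 to 1.30 in BLM+HBO. The ratio of Bhlhe40 to Bhlhe41 also overlapped, at 9.24 to 13.7 in BLM and 7.25 to 14.3 in BLM+HBO.

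The makeup of the PAR family restates the levels of Dbp, Tef and Hlf given above, and nothing further is read from it. Dbp formed 27.2%, 26.4%, 21.0% and 11.2% of the summed Dbp, Tef and Hlf level per kilobase in BLM 1 to 4, and 44.1%, 34.3% and 32.3% in BLM+HBO 1 to 3. Tef held the largest share in every mouse, 65.5% to 81.5% in BLM and 49.1% to 64.3% in BLM+HBO. Hlf held 4.89% to 7.34% in BLM and 3.37% to 6.83% in BLM+HBO.

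Between genes, levels were compared as RPKM, the CPM per kilobase of the summed exon length in the count table. In BLM the order by mean RPKM was Bhlhe40 (42.3 ± 1.86, SD, n = 4), Tef (18.4 ± 3.42), Nfil3 (12.1 ± 3.64), Dbp (5.94 ± 3.10), Bhlhe41 (3.53 ± 0.636) and Hlf (1.61 ± 0.527). Bhlhe40 lay above Tef, and Bhlhe41 above Hlf, in all 4 BLM mice without overlap of their ranges. Dbp and Bhlhe41 did not differ beyond their spread, because BLM 4 held less Dbp (1.86 RPKM) than Bhlhe41 (3.31 RPKM), and the ranges of Tef and Nfil3 overlapped. Nfil3 at 8.62 to 17.1 RPKM lay only just clear of Dbp at 1.86 to 8.57 RPKM.

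In BLM+HBO the order was Bhlhe40 (36.4 ± 14.9 RPKM, SD, n = 3), Tef (32.8 ± 9.27), Dbp (22.9 ± 14.0), Nfil3 (6.61 ± 1.69), Bhlhe41 (3.73 ± 0.802) and Hlf (3.5 ± 2.36). Dbp and Nfil3 had traded places. Bhlhe40 and Tef overlapped, as did Tef and Dbp and Bhlhe41 and Hlf, while Dbp at 13.1 to 39.0 RPKM and Nfil3 at 4.65 to 7.59 RPKM did not.

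**Figure D3:**
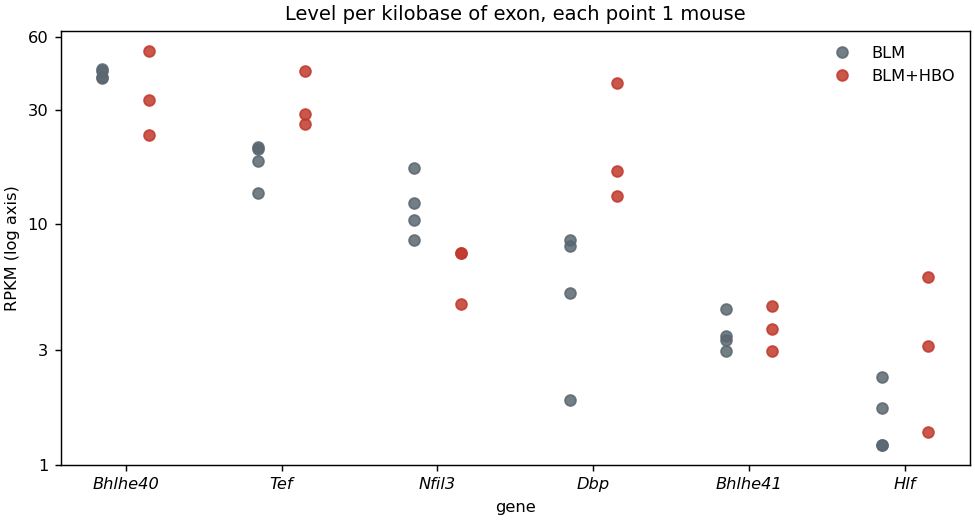
Level per kilobase of exon (RPKM, log axis) of the 6 genes in each mouse, ordered by the BLM mean, with BLM in grey and BLM+HBO in red. Dbp and Nfil3 trade places between the groups, and Bhlhe40 and Bhlhe41 keep theirs.

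The core clock genes that control these factors were tested as a separate list. Of 8 repressor genes, 7 had a positive log2 fold change, 4 passed both thresholds of the study (a fold change over 1.5 with an unadjusted edgeR P under 0.05) higher in BLM+HBO and 0 passed lower. Of all 17465 tested genes, 3.4% passed higher and 2.89% lower, and 8942 had a positive log2 fold change. The median log2 fold change of the list was 0.77, and that of all tested genes was 0.0071. These core clock genes are known neighbours of the 6 genes in the loop, and the list was set with earlier results of these mice known.

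Nr1d1, which encodes REV-ERB alpha, was at 44.8 ± 16.9 CPM in BLM against 106 ± 13.2 CPM in BLM+HBO, higher by 1.25 on the log2 scale (standard error 0.26). All BLM+HBO mice (91.8 to 118 CPM) lay above all BLM mice (27.0 to 60.6 CPM). Per3, a PER family member, was higher by 1.06 (standard error 0.26), from 22.0 to 38.2 CPM in BLM to 49.3 to 96.0 CPM in BLM+HBO. Ciart, which encodes the repressor CHRONO, was higher by 1.05 (standard error 0.30) without overlap of the groups. Nr1d2, which encodes REV-ERB beta, was higher by 0.96 (standard error 0.37) with overlapping groups. It no longer passed without BLM+HBO 1 (0.58) or without BLM 3 (0.89).

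Per1 (0.49, standard error 0.26), Per2 (0.57, standard error 0.21), Cry2 (0.42, standard error 0.15) and Cry1 (-0.32, standard error 0.18) did not pass the fold change threshold or the P threshold or both. Per2 passed both without BLM 1, BLM 3 or BLM+HBO 3, and Per1 without BLM 3 or BLM+HBO 3. The adjusted P by edgeR was 0.423 for Nr1d1, Per3 and Ciart and 0.440 for Nr1d2. By DESeq2 it was 0.0049 for Nr1d1 and 0.022 for Per3, and over all alternatives it ranged from 0.00028 to 0.802 for Nr1d1 and from 0.0025 to 0.802 for Per3.

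Of the 6 activator genes reported here, 5 were tested, and 1 passed both thresholds, lower in BLM+HBO. This was Arntl, the gene of BMAL1, at 15.4, 22.3, 19.3 and 31.5 CPM in BLM 1 to 4 and at 6.49, 10.8 and 16.7 CPM in BLM+HBO 1 to 3. Its log2 fold change was -0.96 (standard error 0.33, edgeR adjusted P = 0.423, 0.0346 to 0.802 over the alternatives), with BLM+HBO 3 inside the BLM range. Without BLM+HBO 2 or without BLM+HBO 3 the number of activator genes past both thresholds was 2. Npas2 differed by -0.62 on the log2 scale (standard error 0.43), and like Arntl it was highest in BLM 4 and lowest in BLM+HBO 1. Clock (-0.27, standard error 0.17), Arntl2 (-0.25, standard error 0.27) and Rora (-0.10, standard error 0.18) did not pass. Rorb was not tested, with 2 to 17 counts per mouse.

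The ratio of Dbp to Arntl per kilobase, activator target over activator, spanned the widest range of the ratios examined. It was 4.20, 2.74, 2.03 and 0.446 in BLM 1 to 4, and 45.1, 11.6 and 5.89 in BLM+HBO 1 to 3. The groups did not overlap, and the difference on the log2 scale was 3.02. With each mouse left out, a check chosen after seeing the data, it was between 2.21 and 3.67. Dbp was chosen with its difference known and itself separates the groups, whereas Arntl overlaps, so nothing further is read from this ratio.

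**Figure D4:**
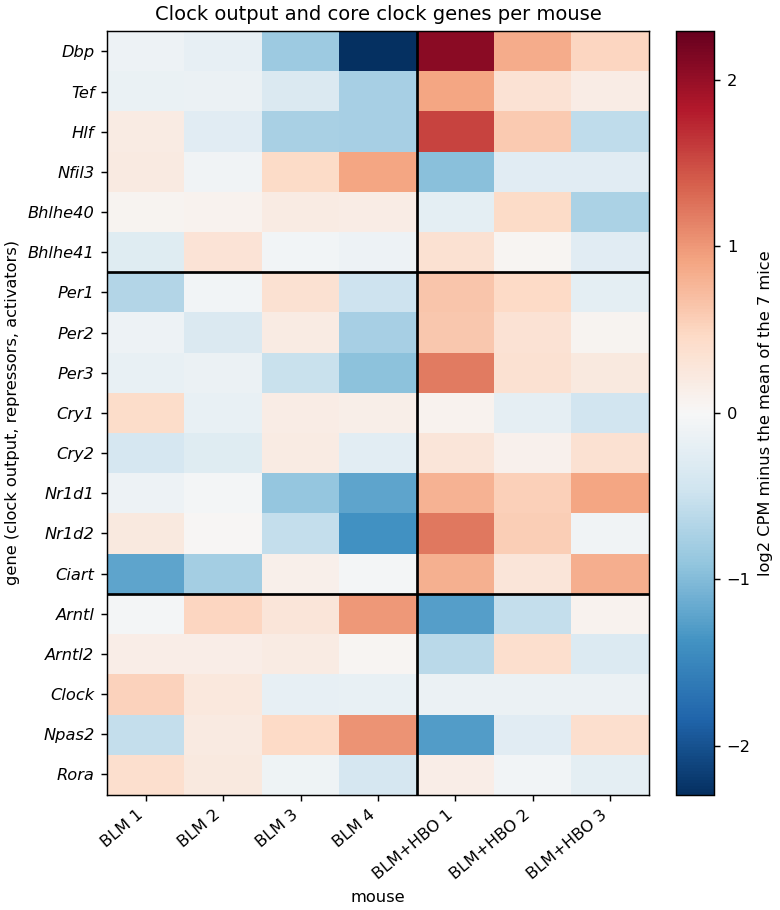
Log2 CPM minus the mean of the 7 mice (colour scale) for the 6 clock output genes, the clock repressors and the tested clock activators (rows, divided by lines) in each mouse (columns, BLM left and BLM+HBO right). Dbp, Tef, Per3 and Nr1d2 are lowest in BLM 4 and highest in BLM+HBO 1, and Nfil3, Arntl and Npas2 show the opposite extremes.

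Genes known to be driven by the PAR bZIP factors in other tissues were mostly above 0 without passing. Of 8 such genes, 7 were tested, all 7 had a positive log2 fold change, 1 passed both thresholds higher and 0 lower, and the median was 0.41. Among all tested genes 8942 of 17465 were positive, 3.4% passed higher and 2.89% lower. Cyp2a5, a cytochrome P450, stood at 16.9, 32.0, 22.4 and 5.16 CPM in BLM 1 to 4 and at 47.3, 40.9 and 30.1 CPM in BLM+HBO 1 to 3. Its log2 fold change was 1.05 (standard error 0.45, edgeR adjusted P = 0.460). It failed the P threshold under 6 of 14 alternatives, namely DESeq2, robust empirical Bayes, and leaving out BLM 1, BLM 3, BLM+HBO 1 or BLM+HBO 2. The number of genes of this list past both thresholds was 2 without BLM 2, and 0 without BLM 1 or BLM+HBO 1. Por, the electron donor of cytochromes P450, was at 168 ± 27.1 CPM in BLM against 242 ± 72.9 CPM in BLM+HBO, which is 0.53 on the log2 scale (standard error 0.20), below the fold change threshold. Alas1, which starts heme synthesis, had 0.36 (standard error 0.16).

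**Figure D5:**
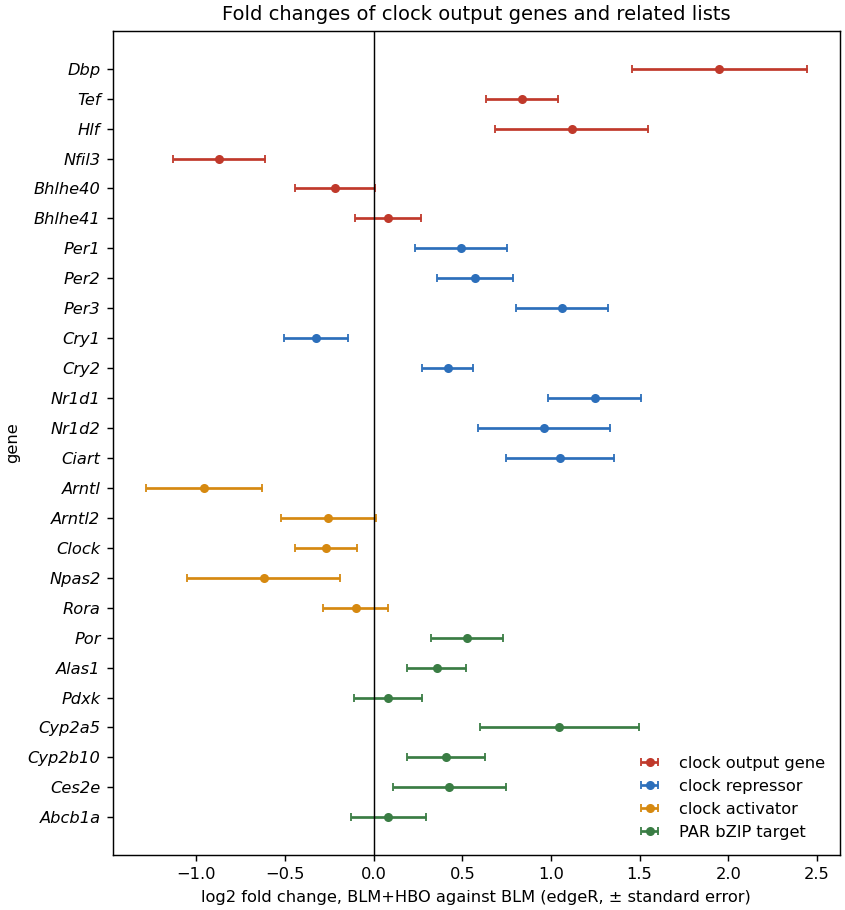
Log2 fold change of BLM+HBO against BLM (horizontal axis, edgeR, bars are standard errors) for the 6 clock output genes, the clock repressors, the tested clock activators and the tested PAR bZIP target genes. Dbp (1.95) lies farthest above 0, and Arntl (-0.96) and Nfil3 (-0.87) farthest below.

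Further lists of linked genes were counted against the background of 3.4% of all tested genes higher and 2.89% lower. Of 8 further rhythmic genes 0 passed both thresholds (median log2 fold change -0.04), with 2 passing without BLM+HBO 2 and 1 without BLM 3 or BLM 4. Those of them with the largest absolute log2 fold changes were Lonrf3 (-0.71, standard error 0.35) and Dtx4 (-0.52, standard error 0.22). Both are lower in BLM+HBO, but the log2 fold change was positive for 3 of the 8 rhythmic genes and negative for 5. Of 11 glucocorticoid-responsive genes, which include hormone-induced genes that peak with the clock, 0 passed higher and 3 lower (median -0.09). The log2 fold change was positive for 5 of the 11 and negative for 6. The 3 that passed were Mt1 (-0.83, standard error 0.27), Mt2 (-1.69, standard error 0.66) and Fkbp5 (-0.99, standard error 0.40). Mt1 and Mt2 encode metallothioneins, Mt2 with only 7 to 69 counts per mouse, and Fkbp5 encodes a cochaperone of the glucocorticoid receptor. Their edgeR adjusted P values lay between 0.423 and 0.442, Fkbp5 failed the P threshold under 6 of 14 alternatives and Mt2 under 4, Mt1 missed the fold change threshold without BLM+HBO 3 (-0.57), and the number past both thresholds was 1 without BLM 2. Of the 15 HIF signature genes, transcripts induced by hypoxia as the DEC genes are, 0 passed higher and 1 lower (Tubb6, -0.90, standard error 0.23, adjusted P = 0.423), with a median of -0.32. The number past both thresholds was 5 without BLM+HBO 2 and 2 without BLM 2, BLM 4 or BLM+HBO 3. The HIF list was taken from the study, and its lower level in these mice was known beforehand.

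Among 12979 other genes with a mean log2 CPM of at least 2, likeness to each of the 6 genes was measured as Pearson's r of log2 CPM over the 7 mice, as a description without P. The mice share the difference between the groups. Per3 was closest to both Tef (r = 0.997, Spearman's rho = 1) and Dbp (r = 0.98, rho = 0.96), and was also the gene most opposed to Nfil3 (r = -0.99, rho = -1). Per3 itself separated the groups without overlap, so these r values include the difference between the groups. Over deviations from the group means r was 0.991 with Tef, 0.953 with Dbp and -0.965 with Nfil3. After Per3, Dbp was most like Tmem186 (r = 0.98, rho = 0.89) and Zfp85 (r = 0.97, rho = 1), and Tef most like Zfp85 (r = 0.99, rho = 0.96) and Alg6 (r = 0.97, rho = 0.96). Icam1 was the most opposed gene for Dbp (r = -0.98) and Tef (r = -0.98).

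Hlf was most like Zfp40 (r = 0.99), Mrpl39 (r = 0.99) and Zfp809 (r = 0.98) and most opposed to Ube2c (r = -0.97). Nfil3 was most like Yars (r = 0.99), Smarcc1 (r = 0.98) and Mybl2 (r = 0.97). Bhlhe40 was most like Atp6ap2 (r = 0.98), Ifngr2 (r = 0.97) and Set (r = 0.97) and most opposed to Smad6 (r = -0.97). Bhlhe41 was most like Ei24 (r = 0.96), Rpa1 (r = 0.94) and Gpbp1 (r = 0.94) and most opposed to Ddx49 (r = -0.98). The closest genes depended on the measure. With Spearman's rho, 1 of the 3 was kept for Dbp, Tef, Hlf and Nfil3 and 0 for the DEC genes. With deviations from the group means, 0 of the 3 were kept for Dbp and Nfil3, 1 for Tef, Bhlhe40 and Bhlhe41, and 2 for Hlf.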

How the data were processed

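RNA from right lung lobes of 7 mice was sequenced as paired ends after NEBNext Ultra library preparation. The authors trimmed the reads, aligned them to GRCm38 with Hisat2 (version 2.2.0 per the submitters' processing notes) and deposited raw counts per gene from featureCounts at default settings, 1 library per mouse. The annotation release is not given in the sources used here. Gene symbols came from GENCODE vM21, matched by gene identifier (55141 of 55401 genes, 54349 in the same version). The deposited table also held the exon length of each gene in bases, used for RPKM.

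Low counts were removed with filterByExpr (at least 10 counts, total of at least 15), and the remaining genes were scaled by TMM and tested with the quasi-likelihood test of edgeR 4.0.16 under R 4.3.3, with Benjamini-Hochberg adjustment over 17465 genes. The standard error is the log2 fold change divided by the square root of F. CPM used the scaled library sizes, and log2 CPM a prior count of 2. The depth, 18157161 to 26365969 counts per mouse, limits the precision of low counts. Alternatives were DESeq2 1.42.0, limma-trend (limma 3.58.1), a replicate block, RLE scaling, no filter, robust empirical Bayes, a filter of at least 1 CPM in 3 mice, and fits without 1 mouse at a time. The fit was tested on simulated data. The members and the gene lists were chosen with earlier results of these data known. The named genes were the 6 members, every tested gene of the clock lists that is reported here, genes of other lists that passed both thresholds (otherwise those with the largest fold changes), and the 3 closest and the most opposed gene of each member. A gene of the clock activator list is not reported here and was left out of its counts. Por and Alas1 were named after their values were seen. Each mouse gave 1 library and was 1 replicate.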

Additional observations from a re-analysis of the deposited data

Results flagged for a closer look

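In the BLM group, 33 sets of values were examined for a mouse far from the others, and chance marks about 1 in 20. The log2 ratio of Bhlhe40 to Bhlhe41 stood out, with BLM 2 at 3.21 and the rest of the group between 3.70 and 3.78. The gap was 0.864 of the group's range, above Dixon's critical value for 4 samples. BLM 2 held the most Bhlhe41 of the BLM mice.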

How the results depend on the processing

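Dbp, Tef, Hlf and Nfil3 kept the sign of their log2 fold change under all 14 alternatives. For Dbp, Tef and Nfil3 the groups do not overlap, so leaving out a mouse could hardly turn the sign. The other alternatives refit the same counts, and the genes were chosen with this contrast known, so nothing further is read from this. With each mouse left out, Bhlhe40 ranged from -0.583 to 0.017, turning without BLM+HBO 3, and Bhlhe41 from -0.089 to 0.217, turning without BLM+HBO 1. The difference of mean log2 CPM of Bhlhe41 ranged from -0.080 to 0.230 and turned without BLM 1 or BLM+HBO 1. Rora ranged from -0.224 to 0.025, turning without BLM 1. Genes past both thresholds numbered 1098, 1940 without the filter, and 659 (without BLM+HBO 1) to 1914 (without BLM+HBO 2) with a mouse left out. At adjusted P under 0.05 there were 0 genes by edgeR, 128 by DESeq2, 387 without the filter, and 0 to 267 with a mouse left out. Of the lists, clock repressors ranged from 3 to 6, clock activators from 1 to 2 and rhythmic output genes from 0 to 2 with a mouse left out. In the same fits PAR bZIP targets ranged from 0 to 2, glucocorticoid-responsive genes from 1 to 4 and HIF genes from 1 to 5. Without the filter, 1 rhythmic output gene and 5 glucocorticoid-responsive genes passed, and 0 PAR bZIP targets passed by DESeq2 or robust empirical Bayes. The causes were not tested. Replicate numbers did not pair the mice (correlations of deviations -0.008, -0.066 and 0.161, with 1 of 3 BLM+HBO mice closest to its own number). A replicate block, with BLM 4 left out, gave 1253 genes past both thresholds, 1 rhythmic output gene and 2 HIF genes. Low counts, as of Rorb and Mt2, limit what the depth can show.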
